A study of Mus musculus with 12 samples.

Results

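The Gtsf1 family of the mouse is the set of gametocyte specific factor genes Gtsf1, Gtsf1l and Gtsf2, which were followed here through the development of male germ cells. They were chosen by symbol and make up 3 of the 55487 genes in the table. The family was picked with its levels in these same libraries already known, Gtsf1l being among the genes with the lowest differences of P0 against E16.5. Its levels over the stages are therefore given as a description, with no test on the members. The cells are male germ cells of the testis, called gonocytes in the labels, isolated from mice with an Mvh-Venus transgene. In such mice a fluorescent protein driven by the promoter of a germ cell gene marks the germ line. The 4 groups of 3 libraries each were 2 fetal stages, E13.5 and E16.5 (days of embryonic development), and 2 stages after birth, P0 (birth) and P3 (3 days later). On genotype the labels conflict. Every title and source name says WT, while the genotype tag reads Morc1 (+/-) at E13.5 and P0, and Morc1 (-/-) at E16.5 and P3. Samples were grouped by stage alone. Each comparison of consecutive stages crosses that tag, so stage and tagged genotype cannot be told apart there. Only P0 against E13.5 and P3 against E16.5 stay within a tag. Nothing in the labels says whether the 3 libraries of a stage came from separate animals, and p-values measure the spread between these libraries only.

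PIWI proteins are Argonaute proteins of the germ line that carry small guide RNAs, the piRNAs, and use them to silence transposons. They do so by cutting transposon transcripts and, in fetal male germ cells, by directing DNA methylation to transposon copies in the nucleus. Gtsf1 encodes a small protein with tandem CHHC zinc fingers that binds PIWI proteins, promotes their cutting activity and is needed for transposon silencing and male fertility in mice. Gtsf1l and Gtsf2 encode relatives with the same kind of zinc finger.

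Gtsf1 (ENSMUSG00000022487) and Gtsf2 (ENSMUSG00000053508) are neighbours on chromosome 15, both on the minus strand. Gtsf1 spans 103402405 to 103430470 and Gtsf2 spans 103438957 to 103448469 in GRCm38, so that Gtsf2 lies 8487 bases upstream of Gtsf1. Gtsf1l (ENSMUSG00000070708) stands apart on chromosome 2, from 163087034 to 163087855 on the minus strand. All are annotated as protein-coding, and none overlaps another annotated gene. In an alignment of their longest complete reading frames, Gtsf1l and Gtsf2 shared 305 of 446 aligned bases (68.4%). Gtsf1 shared 58.5% of aligned bases with Gtsf1l and 56.8% with Gtsf2. The chromosomal neighbours were thus not the most alike in coding sequence. No 50-base stretch of a Gtsf1 or Gtsf2 transcript occurred in another annotated gene, and 28 of the 773 such stretches of Gtsf1l did (3.62%, all in Zfp850). No such stretch was common to a pair of members.

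The promoters of the members are shown next, and they differed in CpG content. Whether that content bears on the levels was not tested. Each sequence is the coding strand from 250 bases before to 50 after 1 start per gene in the RefSeq promoter table (GRCm38.p6, minus strand), with CpG dinucleotides in capitals.
Gtsf1 promoter, chr15:103430378-103430677: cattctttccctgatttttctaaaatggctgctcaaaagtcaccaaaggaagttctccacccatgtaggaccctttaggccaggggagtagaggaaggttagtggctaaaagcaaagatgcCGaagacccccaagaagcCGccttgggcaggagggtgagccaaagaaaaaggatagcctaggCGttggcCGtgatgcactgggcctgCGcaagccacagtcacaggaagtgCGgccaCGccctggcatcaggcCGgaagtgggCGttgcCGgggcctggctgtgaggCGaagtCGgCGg
Gtsf1l promoter, chr2:163089552-163089851: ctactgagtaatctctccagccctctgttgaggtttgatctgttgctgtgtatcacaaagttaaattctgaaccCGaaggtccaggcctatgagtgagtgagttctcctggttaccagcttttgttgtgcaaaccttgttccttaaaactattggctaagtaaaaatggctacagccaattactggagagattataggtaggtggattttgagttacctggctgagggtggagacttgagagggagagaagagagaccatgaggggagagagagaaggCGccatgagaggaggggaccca
Gtsf2 promoter, chr15:103448410-103448709: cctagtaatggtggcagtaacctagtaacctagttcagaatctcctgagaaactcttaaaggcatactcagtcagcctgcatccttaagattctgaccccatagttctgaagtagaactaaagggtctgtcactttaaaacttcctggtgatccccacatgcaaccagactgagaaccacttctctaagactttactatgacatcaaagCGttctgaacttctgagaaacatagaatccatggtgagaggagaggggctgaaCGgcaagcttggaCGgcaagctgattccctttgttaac
The Gtsf1 window held 13 CpG dinucleotides, more than 62.1% of 32851 mouse promoter windows of the same length, whose median was 7. The Gtsf2 window held 3 and the Gtsf1l window 2, more than 23.3% and 14.1% of promoters. GC content was 57.7% for Gtsf1, 47% for Gtsf1l and 44.7% for Gtsf2. The letters CCGGAAGT, the core of ETS factor motifs, occurred on the coding strand of the Gtsf1 window 3 bases after the start that the window is built on, in neither other member, and on either strand in 3.89% of promoters. That motif was searched after the sequence had been read. CACGTG (7.15% of promoters) and TATAAA (13.6%) were searched on both strands and were in no member's window. Other annotated starts differ. The RefSeq gene record begins 18 bases upstream of the window's start for Gtsf1 and 1505 bases upstream for Gtsf2, outside its window. The GENCODE gene begins 43 bases upstream for Gtsf1 and 10 for Gtsf2. For Gtsf1l the window's start lies 1746 bases upstream of the GENCODE start, which the window does not hold.

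Depth was similar in all libraries, at 40946616 to 51533747 reads assigned to genes. The deposited values are reads divided by 1 size factor per library, called normalized counts here. The factor was 1.94 ± 0.118 at P0 (SD, n = 3), against 0.939 ± 0.0175, 1.13 ± 0.117 and 1.01 ± 0.0225 for E13.5, E16.5 and P3. At P0 1 normalized count thus stood for 1.94 reads on average, and differences that involve P0 depend on the scaling more than others. All 6 germ cell markers were detected at every stage, with summed levels of 218533 to 254524 normalized counts in the libraries of E13.5, E16.5 and P3 and 126515 to 134095 at P0. Markers of somatic cells were present too. The 7 Sertoli cell markers summed to 10770 to 20359 at P0, with 1187 to 1905, 2718 to 5741 and 4388 to 6165 in the E13.5, E16.5 and P3 libraries. The 4 peritubular markers summed to 2835 to 3156 at P0 and at most 1331 elsewhere. The 7 mast cell markers were at 0 at E13.5 and summed to 1242 to 2658 at P0. Normalized counts of Morc1 itself ranged from 1621 to 1830 (E13.5), 28328 to 32916 (E16.5), 7280 to 7708 (P0) and 10584 to 11129 (P3). Reads of Morc1 were thus present in all groups, those tagged Morc1 (-/-) included. Where the mutated part of the gene lies is not given in the sources used here.

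Gtsf1 was the member with the most reads at every stage but the first. Its normalized counts in libraries 1, 3 and 4, as the table numbers them, were 286.1, 333.0 and 312.3 at E13.5. They came to 6081, 5418 and 5826 at E16.5, to 3557, 3697 and 3948 at P0, and to 6484, 5810 and 4676 at P3. E13.5 was lowest by far, P0 lay between it and the other stages, and only E16.5 and P3 overlapped. The means were 310.5 ± 23.5, 5775 ± 335, 3734 ± 198 and 5657 ± 913 (SD, n = 3). The E16.5 mean was 18.6 times the E13.5 mean, a log2 difference of 4.21 (SE 0.10). From E16.5 to P0 the difference was -0.63 and from P0 to P3 0.59 (SE 0.10 each). Both smaller differences depended on the scaling, since equal library totals gave 0.035 and -0.25, and median-of-ratios factors -0.37 and 0.15. As TPM, scaled to the library's own total per length, Gtsf1 stood at 13.48 ± 1.14, 371 ± 16.48, 387 ± 32.5 and 309 ± 38.1. The separation of E13.5 from the rest thus held on each of these scales, while the order of the other stages did not. Within a genotype tag, P0 exceeded E13.5 by 3.59 (12.03 times), and P3 differed from E16.5 by -0.04 (SE 0.10). The P3 libraries spread most, with a coefficient of variation of 16.1%. Without P3 library 4, the lowest of them, the last difference was 0.089.

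Gtsf1l followed a different course, present at both fetal stages and nearly absent after birth. Its normalized counts were 684.0, 673.6 and 697.2 at E13.5 and 473.3, 511.4 and 554.8 at E16.5. After birth hardly any reads were left: 1, 14 and 11 reads at P0 and 8, 7 and 5 at P3. These reads equal normalized counts of 0.522, 7.61 and 5.31, and of 7.75, 6.87 and 5.06. Both fetal stages lay far above both postnatal stages, and only P0 and P3 overlapped. In stage order the means were 684.9 ± 11.8, 513.2 ± 40.8, 4.48 ± 3.61 and 6.56 ± 1.37. The P0 mean was 114.6-fold below that of E16.5 and 152.9-fold below that of E13.5. From 26 reads against 1747, the ratio of E16.5 to P0 was 115.6, with an exact 95% interval of 78.6 to 177.5 that covers counting error only. The P3 mean was 78.2-fold below that of E16.5. The step from E13.5 to E16.5 was small, a log2 difference of -0.42 (SE 0.45, a spread shared with the sparse postnatal libraries), and it was 0.087 with equal library totals. In bulk samples, fewer cells of a type and less RNA per cell cannot be told apart. The summed germ cell markers were 131328 ± 4184 at P0, against 233307 ± 12801 and 228623 ± 9900 at the stages before and after. That sum was not computed under another scaling. Normalized library totals were lower at P0 too, at 2.30e+07 to 2.49e+07, against 3.61e+07 to 3.91e+07 at E16.5. The markers also differed from each other. From E16.5 to P0 the mean of Dazl rose from 35953 to 59234, that of Dnd1 fell from 69582 to 3892, and Ddx4, Mael, Nanos2 and Nanos3 fell too. The part of germ cell content in the Gtsf1l level was not tested.

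Gtsf2 was the rarest member and had yet another course. Libraries 1, 3 and 4 held 1, 0 and 0 reads at E13.5 and 35, 17 and 46 at E16.5. P0 libraries held 105, 113 and 105, and P3 libraries 0, 7 and 0. The matching normalized counts were 1.06, 0 and 0, then 33.4, 15.8 and 36.4, then 54.8, 61.4 and 50.7, then 0, 6.87 and 0. Every P0 library was above every E16.5 library, and only E13.5 and P3 overlapped. The means were 0.352 ± 0.609, 28.5 ± 11.1, 55.6 ± 5.41 and 2.29 ± 3.97. E13.5 was at or under the floor of 3 reads in each library, which equals 3.15 to 3.26 normalized counts. The ratio of E16.5 to E13.5 was 81.5 by summed reads, with an exact 95% counting interval of 14.3 to 3252, and that of P0 to E13.5 was 156.2 (27.8 to 6187). P0 stood 1.92 times above E16.5 (1.52 to 2.43), and P0 stood 24.1 times above P3 (11.5 to 60.3). All 7 P3 reads came from library 3, so the last ratio rests on that library and has no finite value without it. The same order of P0 over E16.5 was found under each scaling tried. Its log2 difference was 1.02 in the deposited scaling and 1.67 with equal library totals (SE 0.67 and 0.64). That SE shares its spread with the sparse E13.5 and P3 libraries, and was 0.32 in a fit of only the stages compared. The counting intervals above leave out the spread between libraries. All 3 members passed the filter on low values, Gtsf2 only through its E16.5 and P0 libraries and Gtsf1l only through those of E13.5 and E16.5.

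**Figure D1:**
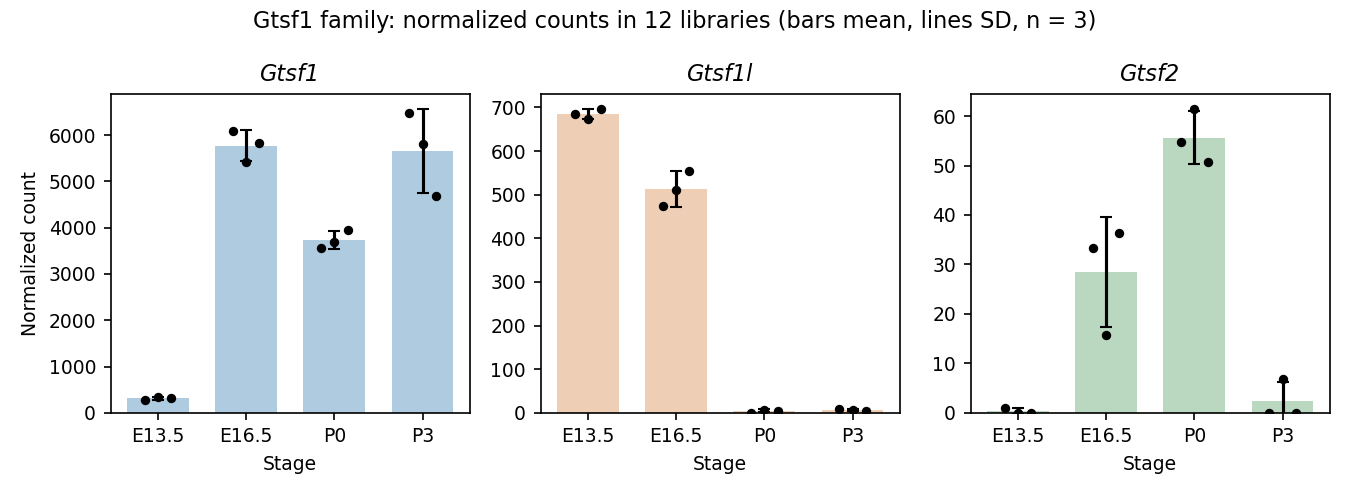
Normalized count (linear axes, a separate one for each gene) by stage for Gtsf1, Gtsf1l and Gtsf2, with bars for the mean, lines for the SD and points for the 3 libraries. Gtsf1 was lowest at E13.5, Gtsf1l was near 0 at P0 and P3, and Gtsf2 was highest at P0.

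The P0 maximum of Gtsf2 came at the stage where the Sertoli, peritubular and mast cell marker sums were highest. The sums of other somatic lists peaked elsewhere or overlapped between stages, though single markers in them did not all follow the sum. Among the P0 libraries, summed Sertoli markers ranged from 10770 to 20359 while Gtsf2 ranged from 50.7 to 61.4, and summed mast cell markers ranged from 1242 to 2658. Summed Leydig cell markers overlapped between E16.5 (608 to 7681) and P0 (1078 to 6106), where Gtsf2 did not. The macrophage markers summed to 974 to 1157 at E16.5 against 92.2 to 215 at P0. Most of the E16.5 sum was Cd68, with means of 938 there and 38.8 at P0. Csf1r (57.3 and 39.4) and Fcgr1 (0.846 and 0.174) were lower at P0 as well, while Adgre1 (47.5 and 72.7) and C1qa (2.59 and 9.75) were higher. The red blood cell markers summed to 1749 to 2416 at E16.5 and 1562 to 2483 at P0. The endothelial list summed to 4429 to 5192 at E13.5, nearly all of it Pecam1, which fetal germ cells also express, and to 1000.4 to 1157 at P0. Of the other endothelial markers, Cdh5 (45.3) and Tek (447.5) had their highest means at P0, as Gtsf2 did. Kdr was highest at P3 (102.2, with 89.7 at P0). The part of somatic cells in the Gtsf2 level was not tested.

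**Figure D2:**
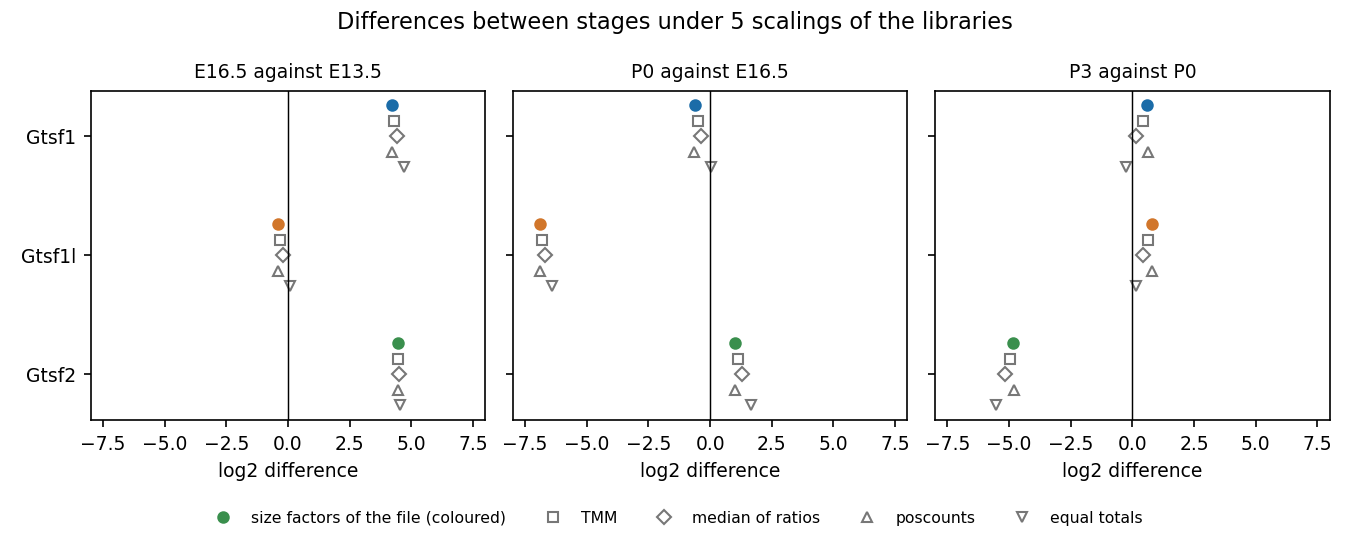
Log2 difference between consecutive stages (horizontal axis) for each member under the size factors of the file (coloured) and 4 other scalings (grey). For Gtsf1 the differences in the middle and right panels cross 0, and so does the Gtsf1l difference of E16.5 against E13.5, while the P0 against E16.5 differences of Gtsf1l lie far below 0 in each scaling.

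Because the members share a library, their shares of the family are free of any scaling. Levels per kilobase of exon were used, with annotated exon lengths of 1390 bases for Gtsf1, 822 for Gtsf1l and 736 for Gtsf2. At E13.5 Gtsf1l was the leading member, with 78.8% ± 1.36 of the family's summed level, against 21.1% ± 1.42 for Gtsf1. By E16.5 both had changed places, with 86.2% ± 1.20 for Gtsf1 and 12.98% ± 1.265 for Gtsf1l. Gtsf1 held 97.1% ± 0.398 at P0 and 99.7% ± 0.133 at P3. Its lowest share at each stage lay above its highest share at the stage before. Gtsf2 reached 2.74% ± 0.343 at P0, 0.796% ± 0.284 at E16.5 and under 0.1% on average at E13.5 and P3, and Gtsf1l had 0.194% ± 0.158 at P0. At P0 every library therefore held more Gtsf2 than Gtsf1l per kilobase, the reverse of both fetal stages.

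**Figure D3:**
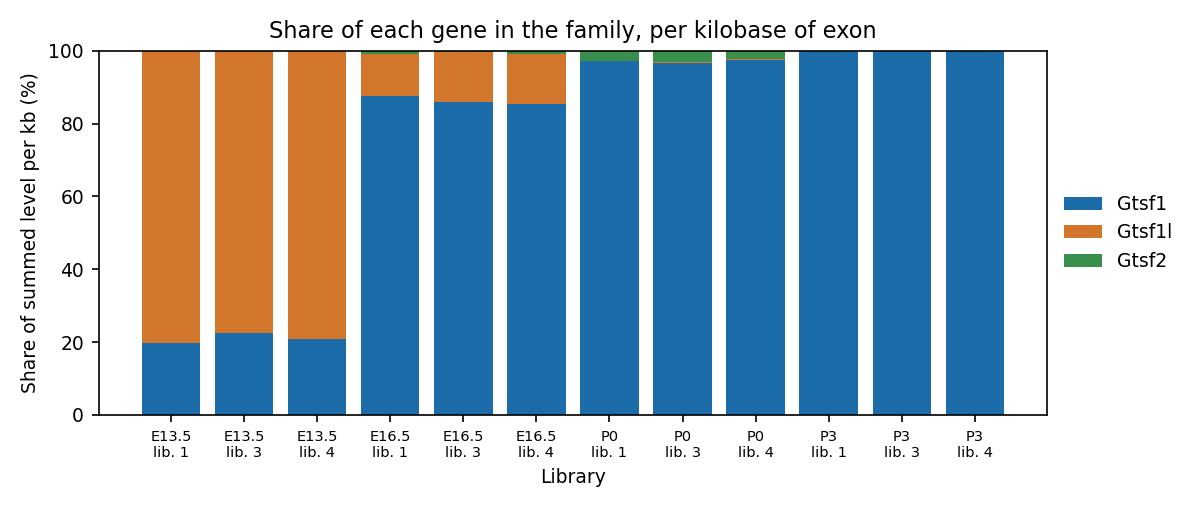
Share of each member in the summed family level per kilobase of exon (vertical axis, percent) for each of the 12 libraries, stacked to 100%. Gtsf1l leads in the 3 libraries of E13.5 and Gtsf1 in the other 9.

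Ranked per kilobase among the genes with a read at that stage, Gtsf1 stood above 73.4% of genes at E13.5 and above 98.6%, 98.9% and 97.9% at E16.5, P0 and P3. Genes with a read numbered 26217, 34668, 39003 and 29967 in stage order, so ranks of different stages refer to different sets of genes. Gtsf1l stood above 85.9% and 90.3% at the fetal stages and above 40.0% and 41.5% after birth. Gtsf2 stood above 63.9% at E16.5 and 74.3% at P0, against 7.66% at E13.5 and 28.7% at P3. Gtsf1 was thus among the abundant transcripts from E16.5 on, and Gtsf2 was of middling rank at its highest.

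Since Gtsf1 protein works on PIWI proteins, its transcript was also set against theirs, in a ratio that no scaling of the libraries changes. Piwil2 encodes the PIWI protein that cuts transposon transcripts in fetal germ cells, Piwil4 the one that acts in their nuclei, and Piwil1 the one of later meiotic cells. Per kilobase, Gtsf1 stood to summed PIWI transcripts as 0.108, 0.145 and 0.147 to 1 at E13.5 and as 0.337, 0.267 and 0.355 to 1 at E16.5. P0 libraries gave 0.509, 0.506 and 0.614, and P3 libraries 1.11, 0.978 and 0.673. No pair of stages overlapped, and the mean was higher at each later stage: 0.133 ± 0.0215, 0.320 ± 0.0467, 0.543 ± 0.0613 and 0.921 ± 0.225. Gtsf1l gave 0.496 ± 0.0576 at E13.5 and 0.0481 ± 0.00799 at E16.5. All members together gave 0.629 ± 0.0769, 0.371 ± 0.0543, 0.559 ± 0.0612 and 0.924 ± 0.225. The summed family was therefore lowest per PIWI transcript at E16.5, the stage at which Piwil4 supplied 46.5% of PIWI transcripts, against 5.63%, 20.9% and 13.3% in the E13.5, P0 and P3 libraries. Piwil2 supplied most of the rest, and Piwil1 at most 4.12% on average.

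**Figure D4:**
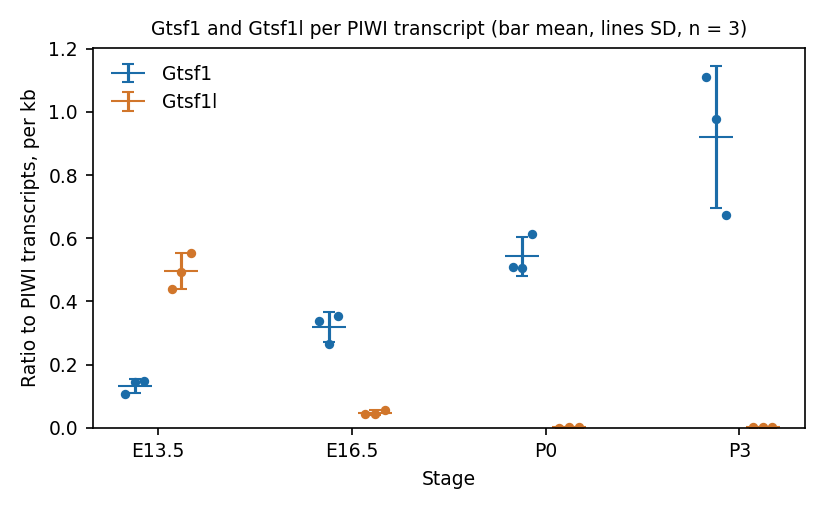
Ratio of Gtsf1 and Gtsf1l to the sum of Piwil1, Piwil2 and Piwil4, each per kilobase of exon (vertical axis, linear), by stage, with a point per library, a bar for the mean and lines for the SD. The Gtsf1 ratio goes from 0.133 at E13.5 to 0.921 at P3, and the Gtsf1l ratio is near 0 after birth.

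The other genes of the piRNA pathway gave the setting for these courses. A list of 29 of them was used, and all 29 were tested with limma over 22384 genes. From E13.5 to E16.5, 24 rose, 3 fell and 2 were not called, with a median log2 fold change of 1.76 against 0.31 for all genes. Of all genes tested, 45.5% rose and 34.6% fell in that comparison. With equal library totals 27 rose and 0 fell, and 70.1% of all calls were higher. From E16.5 to P0, 2 of 29 rose and 27 fell (all genes: 27.6% and 33.4%), with a median of -1.17 against -0.01. From P0 to P3, 18 rose and 9 fell (all genes: 40.1% and 36.4%), a split of 10 to 12 under median-of-ratios scaling and of 7 to 20 under equal library totals. The share of calls that were higher was then 45.5% and 25.9% in the list, and 38.4% and 25.2% over all genes, near each other with equal library totals. P0 against E13.5 gave 16 higher and 10 lower (all genes: 45.7% and 40.5%), or 23 and 5 with equal library totals, where 82.1% of the list's calls and 77.2% of all calls were higher. P3 against E16.5 gave 2 higher and 25 lower (all genes: 34.2% and 35.2%). By mean normalized count, 23 of the 29 were highest at E16.5, against 19.3% of all genes tested. Gtsf1 was highest there too, while Gtsf1l shared its E13.5 maximum with Ddx4 and Rnf17. With equal library totals 26 were highest at E16.5 (15.1% of all genes), Ddx4, Rnf17 and Gtsf1l among them, and Gtsf1 was highest at P0. Gtsf2 shared its P0 maximum with Tdrd6 and Mybl1 under every scaling tried.

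All 3 PIWI genes rose from E13.5 to E16.5 and fell to P0. Piwil4 went from 513.8 ± 71.2 through 32924 ± 4213 to 5601 ± 465 normalized counts, log2 fold changes of 6.0 and -2.55 (limma adjusted p = 1.60e-16 and 7.48e-12). Piwil2 went from 8233 ± 907 through 34930 ± 3089 to 20074 ± 1408, changes of 2.09 and -0.80 (limma adjusted p = 3.17e-12 and 1.61e-06), the second at -0.13 and not called with equal library totals. Piwil1 was far lower, at 187.5 ± 18.3, 1777 ± 376 and 576.4 ± 16.46. From P0 to P3, Piwil4 fell by 0.80 on the log2 scale (limma adjusted p = 3.88e-06) and Piwil2 was not called (-0.04, limma adjusted p = 0.729). Piwil1 was called higher at P3 (0.48, limma adjusted p = 0.00478), a direction that was reversed with equal library totals (-0.36). The P3 libraries of Gtsf1 overlapped those of E16.5, while each PIWI gene had fallen at P3 against E16.5 (log2 fold changes of -0.83 to -3.35, limma adjusted p of at most 1.49e-06). The difference between Gtsf1 and the PIWI genes was not tested.

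Of the 18 genes of biogenesis, loading and germ granules, 14 rose and 3 fell from E13.5 to E16.5 (17 and 0 with equal library totals), and 17 fell to P0 (15 with equal library totals). Henmt1, which methylates the end of piRNAs, stood at 133.2, 3630, 1637 and 1964 normalized counts over the stages, and rose by 4.76 at E16.5 (limma adjusted p = 3.22e-16). Tdrd5, a Tudor protein of germ granules, went from 15103 and 21058 at the fetal stages to 4514 at P0 (-2.22, limma adjusted p = 9.19e-12) and 6409 at P3. Mov10l1, the helicase that starts piRNA processing, went from 30064 ± 3193 at E16.5 to 6188 ± 49.1 at P0 (-2.27, limma adjusted p = 1.82e-12). Tdrd6, a Tudor protein of later germ cells, was the gene of this group that rose to P0, from 50.5 ± 10.01 to 320.3 ± 11.5 (2.66, limma adjusted p = 3.06e-05), the stage of the Gtsf2 maximum. All 5 nuclear silencing genes rose to E16.5 and fell to P0, where 4 of 5 fell with TMM, median-of-ratios or equal-total scaling. Among them Tex15, which acts with the nuclear PIWI protein, stood at 1081, 15221, 6958 and 8835. Of the 3 transcription factors of piRNA loci, Mybl1 alone rose to P0 (0.74, limma adjusted p = 0.0194), from 78.2 ± 14.4 to 131.2 ± 22.6, a call lost without E16.5 library 1 or P0 library 3 (limma adjusted p = 0.0736 and 0.0933).

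**Figure D5:**
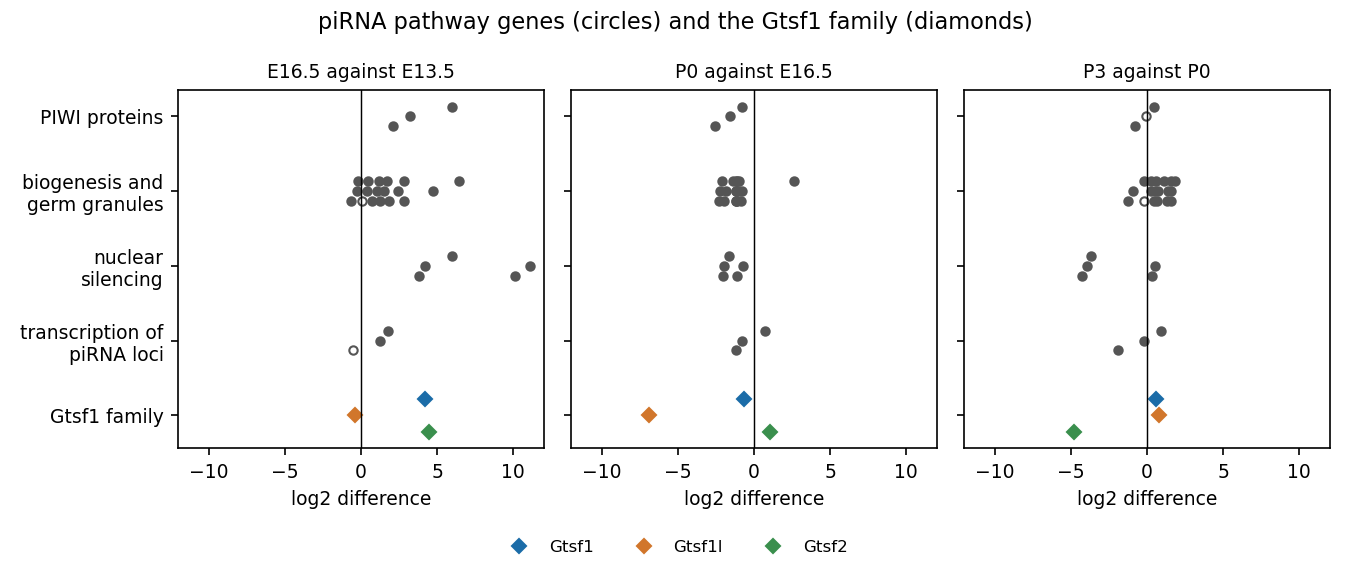
Log2 difference (horizontal axis) between consecutive stages for the 29 piRNA pathway genes by role (filled circles called by limma at adjusted p under 0.05, open circles not called) and for the 3 members (diamonds, not tested). Most pathway genes lie right of 0 at E16.5 against E13.5 and left of it at P0 against E16.5, where Gtsf1l lies at -6.88 and Gtsf2 at 1.02.

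Genes whose course was most like that of a member were ranked by Pearson correlation of log2 normalized counts over the 12 libraries, among 13616 genes with a highest stage mean of at least 100. The points share their libraries, and their 4 stages set most of the correlation, so it is a description. Closest to Gtsf1 were Hexim2 (r = 0.996), which encodes an inhibitor of transcription elongation factor P-TEFb, Peli2 (0.995), Pnma5 (0.994), Faah (0.994), an enzyme that degrades fatty acid amides, and Plaur (0.992), the urokinase receptor. Pnma5 stood at 51.9, 976.2, 626.7 and 982.8 normalized counts over the stages. Of the pathway list, Henmt1 (0.983, rank 59) and Tex15 (0.974, rank 125) came closest to Gtsf1, and Rnf17 was farthest (-0.51). Closest to Gtsf1l were Olfr316 (0.980), an olfactory receptor gene, Thumpd2 (0.978), Lman2l (0.978), Resf1 (0.978), a silencing factor of retroelements, and Zfp799 (0.977). None of these fell as far: Resf1 stood at 6853, 6173, 1915 and 2473. Tdrd5 was the pathway gene closest to Gtsf1l (0.937, rank 154) and Tdrd6 the farthest (-0.86). These names depend on the measure, since with Spearman's rho 0 of 5 remained for either member, and with a pseudocount of 10 4 of 5 remained for Gtsf1 and 1 of 5 for Gtsf1l. Gtsf2 was left out because its highest stage mean was under 100. Between members, Pearson's r was -0.52 for Gtsf1 with Gtsf1l, 0.54 for Gtsf1 with Gtsf2 and -0.24 for Gtsf1l with Gtsf2. Spearman's rho was -0.29, 0.071 and -0.42 for the same pairs, so the relation of Gtsf1 with Gtsf2 was nearly absent by rank.

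Outside the family, CHHC zinc fingers are known in Snrnp48, a protein of the minor spliceosome, and Trmt13, a tRNA methyltransferase. In the deposited scaling Snrnp48 stayed within a narrow range, at 681.2 ± 32.5, 546.6 ± 97.4, 527.2 ± 6.99 and 668.8 ± 102 normalized counts. Its fold changes depended on the scaling: at E16.5 against E13.5 the value was -0.33 (limma adjusted p = 0.0309), and 0.17 and not called with equal library totals (limma adjusted p = 0.268). At P0 against E13.5 Snrnp48 was called lower (-0.37, limma adjusted p = 0.0168), and called higher with equal library totals (0.80, limma adjusted p = 6.21e-05). Trmt13 fell from 521.9 ± 77.1 at E13.5 to 242.2 ± 56.2 at E16.5 (-1.12, limma adjusted p = 2.87e-05, and -0.62 with equal library totals) and stood at 177.6 ± 25.4 and 242.6 ± 34.98 after birth. At P0 against E13.5 the Trmt13 fold change was -1.55 (limma adjusted p = 5.40e-07), a call lost with equal library totals (-0.38, limma adjusted p = 0.0742).

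The genes beside the members had courses of their own. Mybl2, a cell cycle transcription factor gene, ends 2346 bases from the 3′ end of Gtsf1l on the other strand. It stood at 19448 ± 572, 3585 ± 96.6, 862.8 ± 126 and 6511 ± 371 normalized counts. It fell from E16.5 to P0 (-2.06, limma adjusted p = 8.23e-12), where Gtsf1l differed by -6.88, and rose to P3 (2.92, limma adjusted p = 7.07e-14), where Gtsf1l held 5 to 8 reads. Tox2, 115270 bases away on the other side of Gtsf1l, rose from 49.7 to 709.9 from E13.5 to E16.5 (3.81, limma adjusted p = 9.51e-14), where Gtsf1l differed by -0.42. Itga5, the fibronectin receptor subunit gene 35642 bases beyond Gtsf1, was highest at P0 (230.3 ± 21.4), as Gtsf2 was, and stood at 25.1 ± 10.4, 119.7 ± 26.3 and 101.6 ± 8.53 at E13.5, E16.5 and P3. Nckap1l, a gene of blood cell cytoskeleton 5325 bases from Gtsf2, was highest at P3 (281.7 ± 43.6), a rise of 1.92 from P0 (73.5 ± 5.28, limma adjusted p = 1.22e-06), a step over which Gtsf2 went from 105 to 113 reads per library to at most 7. P0 was the lowest stage of Nckap1l in the deposited scaling and E13.5 with equal library totals.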

How the data were processed

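RNA from 12 samples (4 stages, 3 each) was isolated with the RNA plus XS kit for small inputs and sequenced from SMART-seq v4 and TruSeq mRNA libraries, per the labels' protocols. The submitters' processing notes name bcl2fastq 2.20, cutadapt 1.18, HISAT2 2.1.0, featureCounts 1.5.2 and DESeq2 1.26.0 with mm10 (GRCm38). Annotation release, strand setting and the handling of reads with several matches are not given in the sources used here. Whether reads of overlapping antisense genes were told apart is therefore not known. The authors deposited 1 table of signal: read counts of 55487 genes divided by 1 size factor per library (RLE). Dividing each library by the value of 1 read gave whole numbers for 100% of values (tolerance 0.001), and these were used as reads. Column heads number the libraries 1, 3 and 4, not 1 to 3 as the titles do, so columns were assigned to stages only.

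Symbols matched 55141 of 55487 identifiers (99.4%), and positions and exon lengths came from GENCODE on GRCm38. The 22384 genes that reached 10 normalized counts in 3 or more libraries were tested as log2(normalized count + 1) with limma 3.58.1 in R 4.3.3, all 4 stages sharing 1 spread (8 residual degrees of freedom), at a Benjamini-Hochberg adjusted p under 0.05. Fold changes are on that scale and understate those of low genes. Members are described by values without a test. Intervals and the floor of 3 reads describe counting error of reads alone. They treat reads as independent molecules, which PCR copies are not, so they can understate even that error. Named genes are the members, pathway, CHHC and marker lists, nearest protein-coding neighbours, Morc1 and the 5 genes most correlated with each member whose highest stage mean is at least 100. Of the pathway list, the genes given by value were chosen after their values were seen. The members and lists were chosen with earlier results of these data known. Alternatives were TMM, median-of-ratios, poscounts and equal-total scalings, a pseudocount of 0.1 or 10, no filter or a mean of 100 as the filter, only the stages compared, edgeR 4.0.16 and DESeq2 1.42.0 on recovered reads, leaving out each library and, added after seeing the data, a replicate block on the library numbers. The methods were tested on simulated data. Python 3.11.15 served the remaining steps.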

Additional observations from a re-analysis of the deposited data

How the results depend on the processing

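Of 354 recomputed differences of the members, 321 moved by less than the spread between libraries, 29 moved by more and 4 changed direction. Part of the 321 was fixed in advance. A change of filter, a fit of only the stages compared or the replicate block leaves a difference of means unchanged. Leaving out a library (180 of the 354) cannot move it beyond that spread. Of 15 differences under each other setting, 15 stayed within it with poscounts factors, 13 with edgeR, 13 with DESeq2 and 12 with TMM. A pseudocount of 0.1 kept 11, a pseudocount of 10 kept 8, median-of-ratios factors 9 and equal library totals 7. Of the reversals, 3 came with equal library totals, which shifted the median of all genes by 0.53 (E16.5 against E13.5), 0.69 (P0 against E16.5), -0.91 (P3 against P0), 1.31 (P0 against E13.5) and -0.20 (P3 against E16.5) on the log2 scale. With TMM factors the difference was -0.33 for Gtsf1l at E16.5 against E13.5, and for Gtsf1 -0.51 at P0 against E16.5 and 3.79 at P0 against E13.5. With median-of-ratios factors Gtsf1l gave -0.20 at E16.5 against E13.5, and Gtsf1 gave 4.44 there, -0.37 at P0 against E16.5, 0.15 at P3 against P0, 4.06 at P0 against E13.5 and -0.22 at P3 against E16.5. With equal library totals Gtsf1 gave 4.72 at E16.5 against E13.5, 0.035 at P0 against E16.5 (reversed), -0.25 at P3 against P0 (reversed) and 4.75 at P0 against E13.5. Gtsf1l gave 0.087 at E16.5 against E13.5 (reversed) and -6.31 at P0 against E13.5, and Gtsf2 gave 1.67 at P0 against E16.5 and 6.21 at P0 against E13.5.

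The pseudocount moved the sparse genes. A pseudocount of 0.1 gave Gtsf2 differences of 6.89 (E16.5 against E13.5), -7.08 (P3 against P0), 7.94 (P0 against E13.5) and -6.03 (P3 against E16.5), and a pseudocount of 10 gave 1.85, -2.46, 2.66 and -1.65. With 10, Gtsf1l gave -5.20 at P0 against E16.5, -5.62 at P0 against E13.5 and -4.98 at P3 against E16.5. For Gtsf2 at E16.5 and at P0 against E13.5, edgeR gave 5.98 and 6.94 and DESeq2 6.23 and 7.19, against 4.45 and 5.47 with limma. Leaving out a library gave -0.15 to 0.089 for Gtsf1 at P3 against E16.5, and kept the direction of the other 14 member differences. The library numbers in the table (1, 3 and 4) differ from the replicate numbers in the titles, so no pairing comes from the labels. Libraries of different stages with the same number did not deviate together (18 correlations of deviations from the stage mean, from -0.036 to 0.042, against -0.072 to 0.053 for different numbers), and 2 of 12 libraries correlated best with their own number. A replicate block on these numbers was added after seeing the data. Every stage holds each number, so the block cannot change a difference and could move only its SE and p. It gave 27, 29, 26, 26 and 27 calls of the pathway list in place of 27, 29, 27, 26 and 27, in the order of comparisons above. Of the genes named by value it changed 3 calls: Trmt13 at P0 against E16.5 (limma adjusted p = 0.0334) and Snrnp48 at P3 against E16.5 (0.0441) were gained, and Tdrd6 at P3 against P0 was lost (0.0568).

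A minimum size of 1 on the log2 scale left 12 of 27 calls of the pathway list at P3 against P0 and 12 of 27 at P3 against E16.5. Requiring a mean of at least 100, which tests fewer genes, cut the calls over all genes from 17932 to 11459 (E16.5 against E13.5), from 17122 to 11249 (P3 against P0) and from 19280 to 11968 (P0 against E13.5). Of the genes named by value outside the family, directions that reversed with median-of-ratios factors were those of Snrnp48 (-0.11), Henmt1 (-0.17) and Tex15 (-0.10) at P3 against P0 and Snrnp48 at P0 against E13.5 (0.11). With equal library totals, Snrnp48 (0.17) and Rnf17 (0.28) reversed at E16.5 against E13.5, Snrnp48 at P0 against E16.5 (0.63), and Snrnp48 (-0.51), Trmt13 (-0.39), Piwil1 (-0.36), Henmt1 (-0.57), Tex15 (-0.50), Tdrd5 (-0.34) and Rnf17 (-0.10) at P3 against P0. Snrnp48 (0.80), Nckap1l (0.37) and Mov10l1 (0.60) reversed at P0 against E13.5. The cause of these reversals was not tested beyond the shift of all genes given above.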
